A study of Mus musculus and Homo sapiens with 6 samples.

Results

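The ADAM and ADAMTS genes encode related zinc metalloproteases, and 53 of them were described here by the open chromatin listed at and inside them in NMuMG, a line of epithelial cells from the mammary gland of the mouse. Members were the protein-coding genes whose symbol is Adam or Adamts followed by a number and an optional letter, leaving out the Adamtsl genes. They are 53 of 21896 protein-coding genes placed on chromosomes, with 34 ADAM and 19 ADAMTS genes. The assay was ATAC-seq, which marks open DNA by where the transposase Tn5 can insert adapters. The 4 libraries came from 25000, 50000, 75000 and 100000 cells, 1 library at each number. Per the labels, all were NMuMG cells with no other genotype given, below passage 10 and at time 0 h, grown in serum-containing medium. The human MDA-MB-231 samples of the series, 2 in number, were not analysed here.

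ADAM proteins are anchored in the membrane, and many of them cut the outer part off other membrane proteins, which releases growth factors and cytokines or starts signalling from a receptor. ADAM17 and ADAM10 are the best known of these sheddases and act in epithelia on ligands of the EGF receptor, on Notch and on cadherins. A large group of rodent ADAM genes is used almost solely by the testis, where its products take part in sperm maturation and in the binding of sperm to the egg. ADAMTS proteins are secreted, carry thrombospondin repeats and cut components of the extracellular matrix such as proteoglycans and procollagens.

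Members were placed in classes from general knowledge of where they are expressed, with earlier results of these data known. Widely expressed were Adam9, Adam10, Adam15 and Adam17 (4 genes). A second class of 9 genes is expressed in particular somatic tissues or in the epididymis, and the testis class held 21 genes. The line's label was set against marker genes: 6 of 6 epithelial markers (Cdh1, Krt8, Krt18, Jup, Elf3 and Dsp) had a gene-end peak, one that reaches within 1 kb of either annotated end of the gene, in each of the 4 libraries. Among 12 genes of testis and sperm the number was 0, among 6 neuronal genes 0, among 6 fibroblast genes 1 (Col1a1) and among 6 macrophage genes 2 (Cd68 and Spi1). Of all protein-coding genes, 43.9% had such a peak in each of the 4 libraries. Among the neuronal genes, Tubb3 had one in 3 libraries and Snap25 in 2. Each library is given as a list of 38878 to 45530 peaks, each with a whole-number score by the authors of 8 or above. The score ranks peaks within a list, a gene without a listed peak may have signal below that score, and the read depth behind the lists is unknown. With 1 library at each cell number there is no replicate error, and cell numbers were not tested against each other.

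Annotated starts of 28 of the 53 members were found in a RefSeq table of promoters, each with 250 bases before the start and 50 after it. The starts of the 3 widely expressed members in that table and that of Adamts17 lay under a peak in all 4 libraries, and their promoters (GRCm38.p6, the assembly that mm10 names) are shown to let the base composition be seen. They are written 5′ to 3′ on the strand of the gene, with CpG dinucleotides in capitals. The Adam10 promoter is at chr9:70678732-70679031 on the + strand, that of Adam17 at chr12:21373583-21373882 on the - strand, that of Adam15 at chr3:89349979-89350278 on the - strand and that of Adamts17 at chr7:66839485-66839784 on the + strand.
Adam10: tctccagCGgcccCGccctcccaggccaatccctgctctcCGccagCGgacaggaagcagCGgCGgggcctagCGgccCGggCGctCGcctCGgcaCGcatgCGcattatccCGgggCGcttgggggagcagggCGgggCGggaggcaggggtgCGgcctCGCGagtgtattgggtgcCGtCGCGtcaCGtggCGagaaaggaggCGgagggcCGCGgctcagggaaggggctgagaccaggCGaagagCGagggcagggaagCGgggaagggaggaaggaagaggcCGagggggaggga
Adam17: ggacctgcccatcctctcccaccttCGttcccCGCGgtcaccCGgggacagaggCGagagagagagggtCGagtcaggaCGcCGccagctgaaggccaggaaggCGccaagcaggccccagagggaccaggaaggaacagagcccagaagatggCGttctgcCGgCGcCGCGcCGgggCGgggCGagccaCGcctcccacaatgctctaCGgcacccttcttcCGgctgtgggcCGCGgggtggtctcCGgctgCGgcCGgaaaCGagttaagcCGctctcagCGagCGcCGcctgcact
Adam15: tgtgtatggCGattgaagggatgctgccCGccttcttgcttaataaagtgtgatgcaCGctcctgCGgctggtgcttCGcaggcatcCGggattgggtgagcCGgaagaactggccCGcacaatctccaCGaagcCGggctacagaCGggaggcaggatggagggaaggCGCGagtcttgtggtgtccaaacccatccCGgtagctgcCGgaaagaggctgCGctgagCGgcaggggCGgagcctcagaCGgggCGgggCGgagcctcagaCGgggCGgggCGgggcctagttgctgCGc
Adamts17: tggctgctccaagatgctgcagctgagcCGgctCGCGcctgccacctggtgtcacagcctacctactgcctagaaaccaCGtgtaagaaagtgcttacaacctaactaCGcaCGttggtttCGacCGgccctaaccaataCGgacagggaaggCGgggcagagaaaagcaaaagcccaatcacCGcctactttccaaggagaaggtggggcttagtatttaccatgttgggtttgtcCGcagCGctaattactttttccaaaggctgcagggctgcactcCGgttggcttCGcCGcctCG

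For contrast, promoters without a listed peak in any library are shown. Adamts2 (chr11:50601835-50602134, + strand) and Adamts14 (chr10:61273370-61273669, - strand) encode procollagen N-propeptidases and have CpG-rich promoters. Adam1b (chr5:121503386-121503685, - strand) and Adam6a (chr12:113543658-113543957, + strand) are testis genes with 2 CpGs and 1 CpG in this window.
Adamts2: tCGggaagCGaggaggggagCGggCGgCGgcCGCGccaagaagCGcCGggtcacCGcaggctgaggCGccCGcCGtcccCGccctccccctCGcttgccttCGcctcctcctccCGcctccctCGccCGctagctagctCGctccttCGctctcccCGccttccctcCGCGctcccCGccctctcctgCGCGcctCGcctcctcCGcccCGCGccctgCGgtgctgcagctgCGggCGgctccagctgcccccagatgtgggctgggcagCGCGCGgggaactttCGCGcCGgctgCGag
Adamts14: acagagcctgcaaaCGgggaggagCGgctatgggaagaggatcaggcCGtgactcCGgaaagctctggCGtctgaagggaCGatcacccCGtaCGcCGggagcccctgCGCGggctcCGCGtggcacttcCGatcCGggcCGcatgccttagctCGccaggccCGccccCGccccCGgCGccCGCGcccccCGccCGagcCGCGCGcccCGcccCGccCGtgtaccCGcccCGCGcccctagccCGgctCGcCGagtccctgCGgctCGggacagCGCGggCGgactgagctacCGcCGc
Adam1b: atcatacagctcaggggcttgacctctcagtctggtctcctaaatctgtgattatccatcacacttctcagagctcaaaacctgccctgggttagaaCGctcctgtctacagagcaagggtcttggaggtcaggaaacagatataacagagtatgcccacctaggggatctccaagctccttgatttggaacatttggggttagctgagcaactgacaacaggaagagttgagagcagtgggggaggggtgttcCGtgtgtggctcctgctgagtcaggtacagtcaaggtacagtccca
Adam6a: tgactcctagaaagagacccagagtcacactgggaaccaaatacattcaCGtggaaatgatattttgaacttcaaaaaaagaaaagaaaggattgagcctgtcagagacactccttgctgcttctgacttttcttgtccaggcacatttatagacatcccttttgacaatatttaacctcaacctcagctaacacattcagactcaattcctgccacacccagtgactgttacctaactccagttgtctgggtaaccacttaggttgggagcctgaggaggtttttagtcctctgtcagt

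All 4 widely expressed ADAM genes had a gene-end peak in every library, and none of the 21 testis genes had such a peak in any library. At least 1 bp of the peak had to lie in the window. Over all 21896 protein-coding genes, 43.9% had one in all 4 libraries and 47.3% in none. The testis class as a whole, at 0 of 21, and the widely expressed class, at 4 of 4, lay on opposite sides of that share. No test between the classes was made, since genes are not replicates of a condition. Over all 53 members the count was 8 (15.1%), made up of the 4 widely expressed ADAM genes and 4 ADAMTS genes (Adamts4, Adamts6, Adamts13 and Adamts17). Another 6 members had one in some libraries, where the share over all genes was 8.78%, and 39 had none. Per library 13, 12, 8 and 11 members had a gene-end peak in order of cell number, against 46.9%, 48.9%, 48.4% and 49.5% of all protein-coding genes. The plot of scores by member shows these classes side by side.

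**Figure D1:**
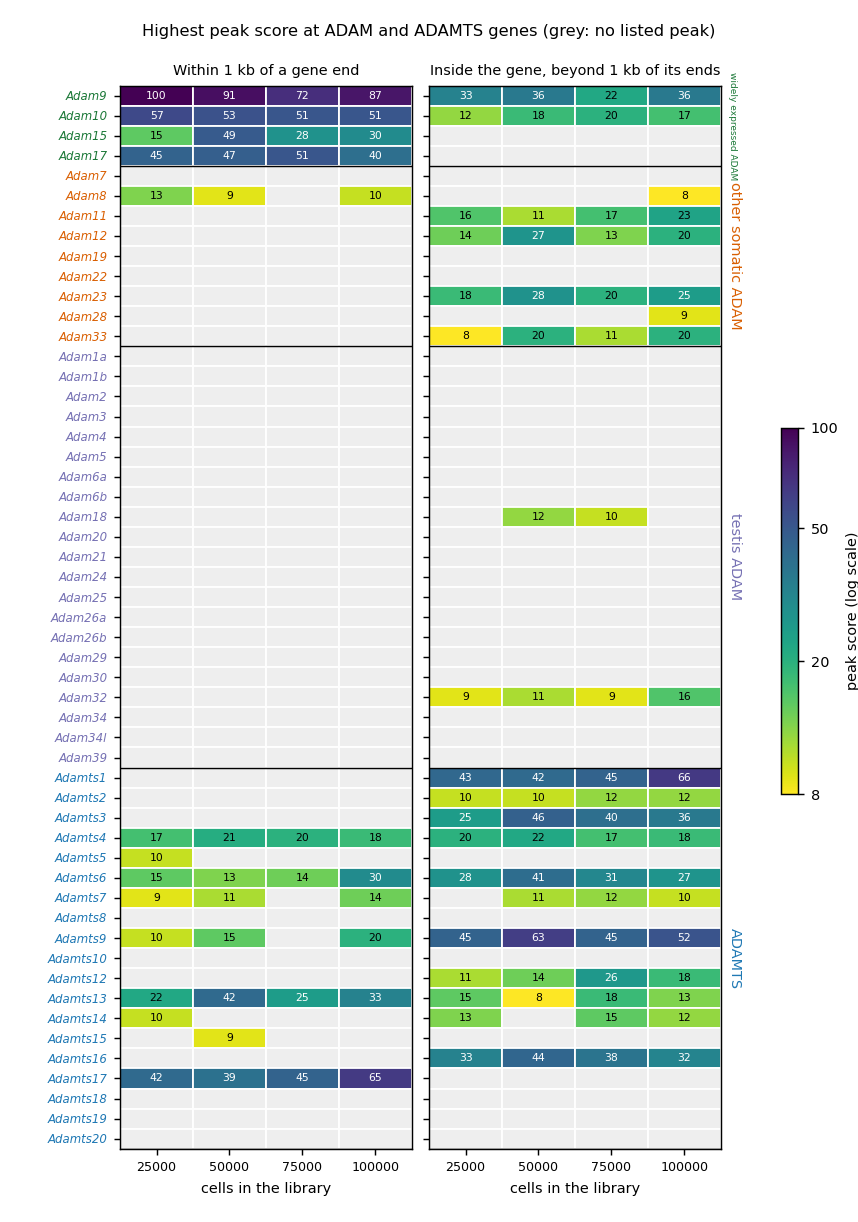
Highest score of a listed peak at each of the 53 members (rows, coloured by class) in each library (columns, by number of cells), within 1 kb of a gene end (left) and in regions inside the gene that do not reach those windows (right); colour is on a log scale, the number in a cell is the score and grey is no listed peak. Adam9 reached 72 to 100 at its gene end, and the 21 testis genes have no coloured cell in the left panel.

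Adam9, a widely expressed sheddase gene, had the highest gene-end scores of the family. They were 100, 91, 72 and 87 from 25000 to 100000 cells. For comparison, the highest gene-end peak of a protein-coding gene that had one scored 26, 32, 30 and 33 at the median and 42, 52, 47 and 53 at the upper quartile, so that Adam9 lay above the upper quartile in each list. The region covered chr8:25016401-25017500 in mm10 coordinates, at the upper end of the gene, meaning here the end with the higher coordinate. The gene Tm2d2 is annotated to begin 0.17 kb beyond that end, and the region overlapped both genes. Whether it is the start of Adam9 cannot be read from the tables, since neither gives a strand for this gene.

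Adam10 encodes the protease that cuts Notch receptors and cadherins at the cell surface. Its start, at the lower end of the gene on chromosome 9, lay inside a region at chr9:70678451-70679450 with scores of 57, 53, 51 and 51. They lay above the upper quartile of gene-end scores in the lists from 25000, 50000 and 75000 cells, and under it in that from 100000 cells. Adam17, which encodes the enzyme that releases TNF-alpha and several EGF receptor ligands, had its start at the upper end of the gene inside a region at chr12:21373151-21373950 that scored 45, 47, 51 and 40. The Adam17 scores lay above the upper quartile at 25000 and 75000 cells, and between the median and the upper quartile at 50000 and 100000 cells. Adam17 had no further listed peak over its 50.1 kb in any library.

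Adam15 encodes a membrane protease of epithelial and endothelial cells. It was the member of its class with the lowest score, 15 in the library from 25000 cells, and had 49, 28 and 30 in the others, at a region of chr3:89349551-89350550 that held its start. The annotated extents of its neighbours Dcst1 and Dcst2 overlap that region. Adam15 was alone among the members in having a peak in all 4 libraries at each of its ends: the region at its lower end, chr3:89339201-89339850, scored 15, 24, 21 and 29.

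Inside the genes, away from the ends, the widely expressed class had 7 regions once peaks of the 4 lists were merged where they overlapped, 2 of them found in all 4 libraries. One lay in Adam9, 25.8 kb from its nearest end, with scores of 33, 36, 22 and 36. The other lay in Adam10, 9.5 kb from the lower end, with 12, 18, 20 and 17.

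The 21 testis genes are Adam1a, Adam1b, Adam2, Adam3, Adam4, Adam5, Adam6a, Adam6b, Adam18, Adam20, Adam21, Adam24, Adam25, Adam26a, Adam26b, Adam29, Adam30, Adam32, Adam34, Adam34l and Adam39. Adam1b and Adam2 encode the subunits of fertilin, a sperm surface complex, and Adam3 encodes cyritestin, a sperm protein required for passage and binding to the egg. In 19 of the 21 there was no listed peak in the gene or within 1 kb of it in any library, a state shared by 35.8% of all protein-coding genes, while 9.72% had a peak in some libraries. Adam32 held a region 28.7 kb inside the gene with low scores of 9, 11, 9 and 16. Adam18 held a region with scores of 12 and 10 at 50000 and 75000 cells and no listed peak in the other libraries. The median over the class of the distance from a gene end to the nearest listed peak was 79.6, 40.2, 65.0 and 79.4 kb in order of cell number, compared with 1.76, 1.21, 1.35 and 1.08 kb over all protein-coding genes. The shortest such distance in the class was 2.08 kb, at Adam30 in the library from 75000 cells, and in the other libraries Adam30 lay 12.6 to 16.5 kb from a peak.

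Many testis genes are short, and over all protein-coding genes the short ones held a peak less often than the long ones. Of the class, 13 genes were at most 10 kb long, and in 0 of these 13 was a peak listed in all 4 libraries in the gene or within 1 kb, against 33.8% of all protein-coding genes of that length. The 3 testis genes of 10 to 50 kb and the 4 of 50 to 100 kb also had none, against 62.5% and 72.7%. In the remaining bin, over 100 kb, 73.6% of all genes had one, and Adam32, the only testis gene of that length, did.

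**Figure D2:**
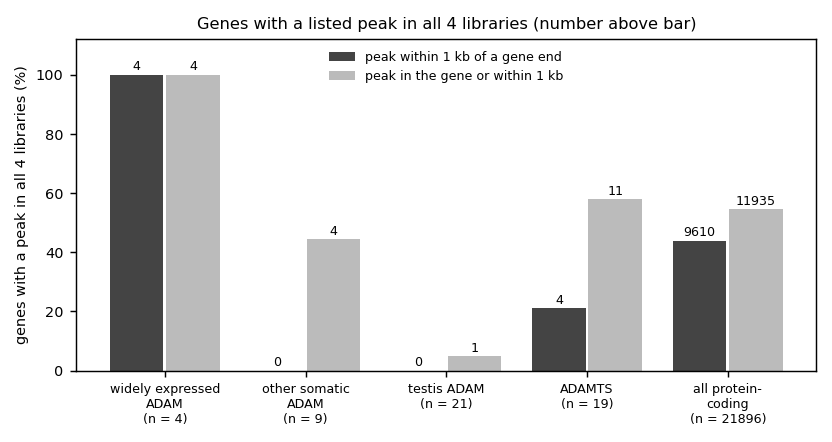
Share of genes (%) with a listed peak in all 4 libraries, within 1 kb of a gene end (dark) and anywhere in the gene or within 1 kb of it (light), by class and for all protein-coding genes; the number of genes stands above each bar and no error applies to a count over 4 single libraries. The testis class has 0 and 1 genes of 21, the widely expressed class 4 and 4 of 4.

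The contrast between the classes could be followed within a single stretch of chromosome 8, where Adam18, Adam3, Adam5, Adam32 and Adam9 lie side by side over 414.8 kb. The 346.7 kb from Adam18 to Adam32 contained 1, 2, 2 and 1 listed peaks in order of cell number. Adam9, 67.4 kb long, contained 5, 5, 3 and 5. Per 100 kb this is 0.29, 0.58, 0.58 and 0.29 peaks for the testis genes and 7.42, 7.42, 4.45 and 7.42 for Adam9. Over all protein-coding genes with 1 kb to either side, there were 2.58, 2.84, 2.73 and 2.95 peaks per 100 kb. The upper end of Adam32 and the lower end of Adam9 are neighbours, and neither had a peak within 1 kb in any library. The map of this stretch shows its highest-scoring peak in each library at the upper end of Adam9, with other peaks of Adam9 spread inside the gene.

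**Figure D3:**
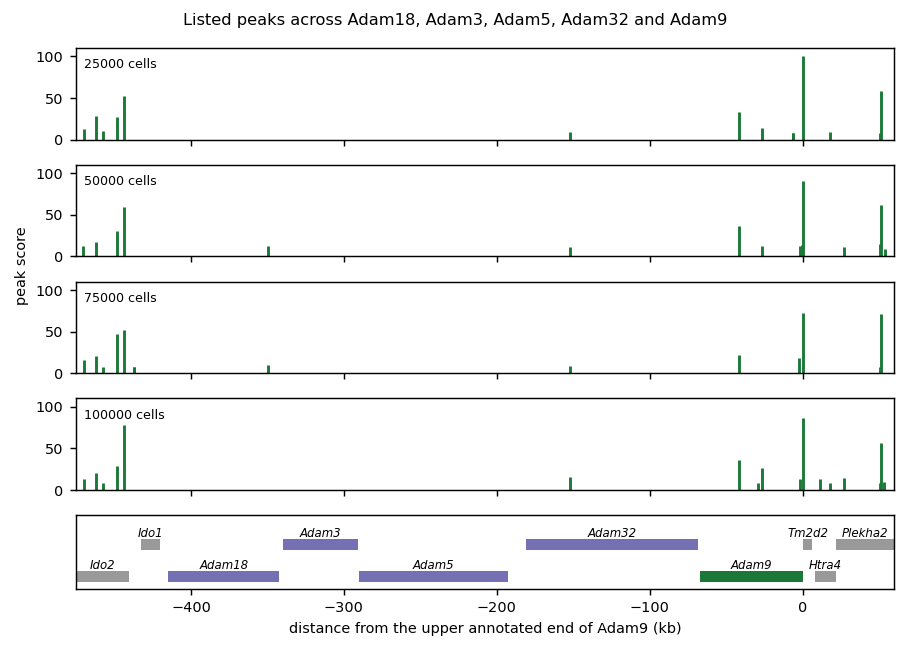
Score of each listed peak (vertical lines) by its distance in kb from the upper annotated end of Adam9, for the 4 libraries, with protein-coding genes below (green Adam9, purple testis ADAM genes, grey other genes, each drawn on either row only for space). The line at 0 scores 72 to 100, and between Adam18 and Adam32 there are 1 or 2 lines a library.

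Other groups of testis genes lay in stretches without any listed peak. The 151.8 kb from Adam24 through Adam25 and Adam20 to Adam39 and the 183.6 kb from Adam26b through Adam26a to Adam34l, all on chromosome 8, had 0 peaks in each library. Adam34 lies within the annotated extent of Adam34l, so these 2 genes are not separate observations. When the genome was cut into tiles of 150 kb, 36.2% had no peak in any library, so that an empty stretch of this size is common. The 56.9 kb holding Adam6b and Adam6a, inside the immunoglobulin heavy chain locus on chromosome 12, also had 0 peaks, with the nearest listed peaks at least 266.9 kb below and 832.2 kb above. Of tiles of 50 kb, 56.1% were empty in all libraries. Adam1b and Adam1a on chromosome 5 had 0 peaks over their 21.6 kb, with peaks 14.8 kb below and 24.0 kb above them. By contrast, the 149.0 kb from Adam4 to Adam21 on chromosome 12 contained 2 to 4 peaks a library, none within 1 kb of either gene; the genes Gm20498, Cox16 and Synj2bp lie in that stretch.

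The promoters of Adam25 and Adam20 were identical at 284 of 304 aligned positions (93.4%). The next closest pair among the 11 testis promoters in the table was Adam26b and Adam34l, at 70.8%, and the median over 55 pairs was 51.0%. How reads that fit several such places were treated is not given in the sources used here, so that a missing peak at a close copy is less certain than at a gene without one.

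Of the 9 ADAM genes expressed in particular somatic tissues or the epididymis, 0 had a gene-end peak in every library. Adam8, a gene of myeloid cells, was the only one with a gene-end peak at all. Its upper end scored 13, 9 and 10 at 25000, 50000 and 100000 cells, with no listed peak at 75000 cells. Its start in the promoter table lies inside the gene and was covered only at 100000 cells, by a peak that scored 8. In the gene or within 1 kb of it, 4 of the 9 had a peak in all 4 libraries (44.4%, against 54.5% of all protein-coding genes). These 4 had it without a gene-end peak in every library, as did 2325 of the 21896 protein-coding genes. By length, 2 of the 4 genes of 10 to 50 kb had a peak in or beside the gene in all 4 libraries, against 62.5% of all such genes. Of those of 50 to 100 kb it was 0 of 2, against 72.7%, and of those over 100 kb 2 of 3, against 73.6%. Adam23, a gene of the nervous system whose product lacks a catalytic site, had a region at chr1:63566901-63567550 with scores of 18, 28, 20 and 25, which lay 28.9 kb from its nearest end. Adam11, also neuronal and without protease activity, had 2 neighbouring regions in all 4 libraries, with scores of 12, 10, 13 and 23 and of 16, 11, 17 and 9. Adam12, a gene of mesenchymal cells and muscle and the longest member at 341.9 kb, had 2 regions in all 4 libraries, 114.8 and 117.1 kb from its nearest end, with scores of 14, 27, 13 and 20 and of 14, 16, 8 and 13. Adam33 had a peak in each library, but none of its 3 regions was found in all 4, and the scores were 8 to 20. Adam28, a gene of lymphoid cells, had a single peak, with a score of 9 at 100000 cells. Adam7, Adam19 and Adam22 had none in or beside the gene. Adam22, also a neuronal gene without protease activity, is 296.0 kb long, and in 73.6% of all genes over 100 kb a peak was listed in all 4 libraries.

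Of the 19 ADAMTS genes, 4 (21.1%, against 43.9% of all protein-coding genes) had a peak at an end in every library and 11 (57.9%, against 54.5%) a peak in the gene or within 1 kb. They carried 1.14, 1.56, 1.35 and 1.65 peaks per 100 kb, below the 2.58 to 2.95 over all protein-coding genes. They were also long, with a median of 114.0 kb against 17.1 kb, and this density was not set against genes of like length. By length, 7 of the 10 ADAMTS genes over 100 kb had a peak in or beside the gene in all 4 libraries, against 73.6% of all such genes. Of the 7 from 10 to 50 kb, 3 had one, against 62.5%. Adamts1, alone at up to 10 kb, had one (against 33.8%), and Adamts14, alone at 50 to 100 kb, did not (against 72.7%). Adamts17, which encodes a protease linked to fibrillin and the growth of the skeleton, had the highest gene-end score of the subfamily at 25000, 75000 and 100000 cells, while at 50000 cells Adamts13 scored higher. The scores of Adamts17 were 42, 39, 45 and 65, in a region at chr7:66839201-66840000 that held its start and overlapped the non-coding gene Gm33627. Adamts6, which also has a role in fibrillin-rich matrix, scored 15, 13, 14 and 30 at its lower end. It also had a region 36.2 kb inside its upper end with scores of 28, 41, 31 and 27. These were higher than at the lower end except at 100000 cells.

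Adamts13 and Adamts4 had gene-end peaks in every library at the upper end of the gene. Adamts13, which encodes the protease that cuts von Willebrand factor, scored 22, 42, 25 and 33 at its upper end. Its start is at the lower end, without a listed peak within 1 kb, and the region at the upper end lay nearest to the end of the neighbour Cacfd1. Adamts4, an aggrecanase gene, scored 17, 21, 20 and 18 in a region just beyond its upper end and 20, 22, 17 and 18 in a region 1.7 kb inside it. The promoter table has no start for Adamts4. A higher-scoring region of 37, 58, 55 and 54 lay 2.5 kb below its lower end, outside the window.

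**Figure D4:**
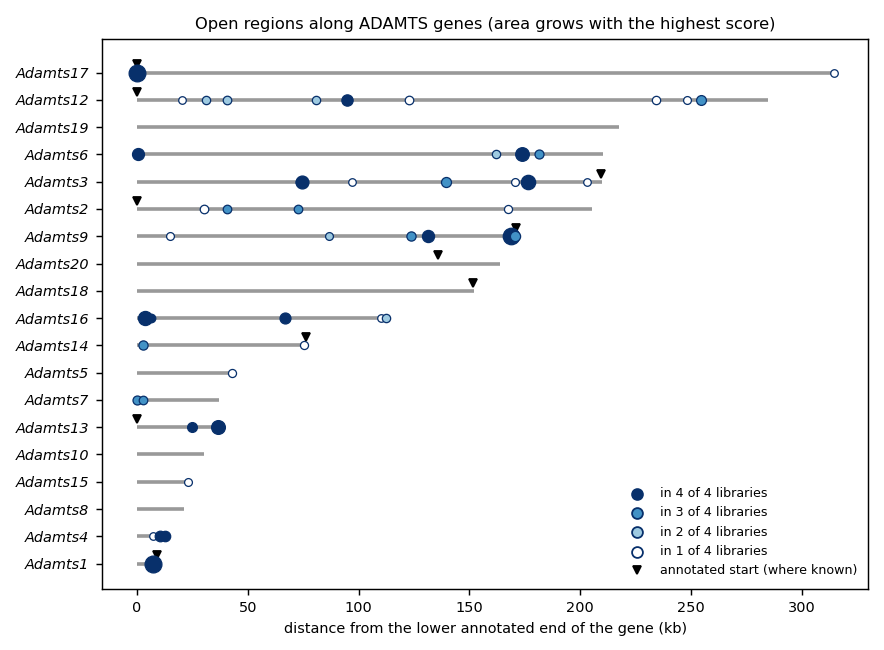
Regions with a listed peak along the 19 ADAMTS genes, drawn to scale in kb from the lower annotated end, with the longest gene on top; fill gives the number of libraries with a peak, circle area grows with the highest score, and triangles are annotated starts where the promoter table has one. Adamts17 has its region in all 4 libraries at the start, whereas Adamts3 has its regions in all 4 libraries far inside the gene.

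Several ADAMTS genes had their highest-scoring regions inside the gene, beyond the windows at its ends. Of 39 merged regions inside these genes and beyond 1 kb of their ends, 12 (30.8%) had a peak in all 4 libraries, against 39.5% of all such regions inside protein-coding genes, 46.3% of all merged regions and 72.8% of those at gene ends. The share was 31.2% of such regions over all members, and these differences were not tested. Adamts1, a proteoglycan-cleaving protease gene, had a region at chr16:85800551-85801850, 1.9 kb inside the gene from its start at the upper end, with scores of 43, 42, 45 and 66. It had no peak within 1 kb of the start. Adamts9, from the same group, was similar: a region centred 2059 bp from its annotated start scored 45, 63, 45 and 52, and the start itself was covered by a weaker region of 10, 15 and 20 in 3 libraries and by no listed peak at 75000 cells. The stronger region overlaps the non-coding gene 9530026P05Rik. Adamts16 had 3 regions inside the gene in all 4 libraries, the highest of them with scores of 33, 44, 38 and 32 at 3.7 kb from its lower end.

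The 3 procollagen N-propeptidase genes, whose products trim fibrillar procollagens before they assemble, had no peak over their starts in any library. Adamts3 had regions 33.3 and 74.6 kb from its nearest end in all 4 libraries, with scores of 17, 46, 40 and 29 and of 25, 29, 23 and 36. Adamts2 had at least 1 peak inside the gene per library, the highest of which scored 10, 10, 12 and 12, but no region in all 4. Adamts14 scored 10 within 1 kb of its upper end at 25000 cells only, and 13, 15 and 12 inside the gene at 25000, 75000 and 100000 cells.

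The remaining ADAMTS genes had gene-end peaks in some libraries or none. Of the COMP-cleaving proteases, Adamts7 had gene-end peaks of 9, 11 and 14, absent at 75000 cells, and a region inside the gene of 11, 12 and 10, absent at 25000 cells. Adamts12 had 9 regions inside its 284.5 kb, of which 1 was found in all 4 libraries, with scores of 10, 14, 26 and 11. Adamts5, the other main aggrecanase gene, scored 10 at its upper end at 25000 cells only, and Adamts15 had 2 adjoining peaks at its upper end, the higher of them 9, at 50000 cells only. Adamts15 also had a region of 64, 72, 47 and 54 in all 4 libraries at chr9:30896551-30897250, 1.9 kb below its lower end and nearest to that end among all genes. No peak was listed in or within 1 kb of Adamts8, Adamts10, Adamts18, Adamts19 and Adamts20, 5 of 19 genes, against 35.8% of all protein-coding genes.

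The promoters differed in CpG content between the classes. The measure is the ratio of observed to expected CpG (CpG number times length over the product of the C and G numbers), which was 0.82 to 0.84 in the 3 widely expressed promoters and 0.00 to 0.36 in the 11 testis promoters, against a median of 0.57 over 21262 promoters of protein-coding genes. Adam10 had 32 CpGs, Adam17 30 and Adam15 25, compared with 0 to 4 in the testis genes. Over all promoters with a ratio of 0.6 or more, 69.8% were overlapped by a peak in all 4 libraries, and of those under 0.6, 12.8%. The testis promoters, all under 0.6 and none with a peak, are thus set against the second share.

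ADAMTS promoters were mostly CpG-rich, yet most of those had no listed peak. Of 10, 7 had a ratio of 0.6 or more, and of these 1 (Adamts17) was overlapped by a peak in all 4 libraries, 1 (Adamts9) in 3 and 5 in none (Adamts2, Adamts3, Adamts14, Adamts18 and Adamts20). Over all promoters of that kind, 19.5% had no listed peak in any library. Adamts14 had 44 CpGs and Adamts2, Adamts3 and Adamts20 had 41 each, more than Adam10. Outside the ADAMTS and widely expressed genes, Adam23, with 31 CpGs and a ratio of 0.88, was the only other one with a ratio of 0.6 or more. It had no listed peak there. This holds among the 28 members with a start in the promoter table, and the promoters of the other members are unknown. These members were chosen by name and not for their promoters; the shares describe 11 promoters.

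**Figure D5:**
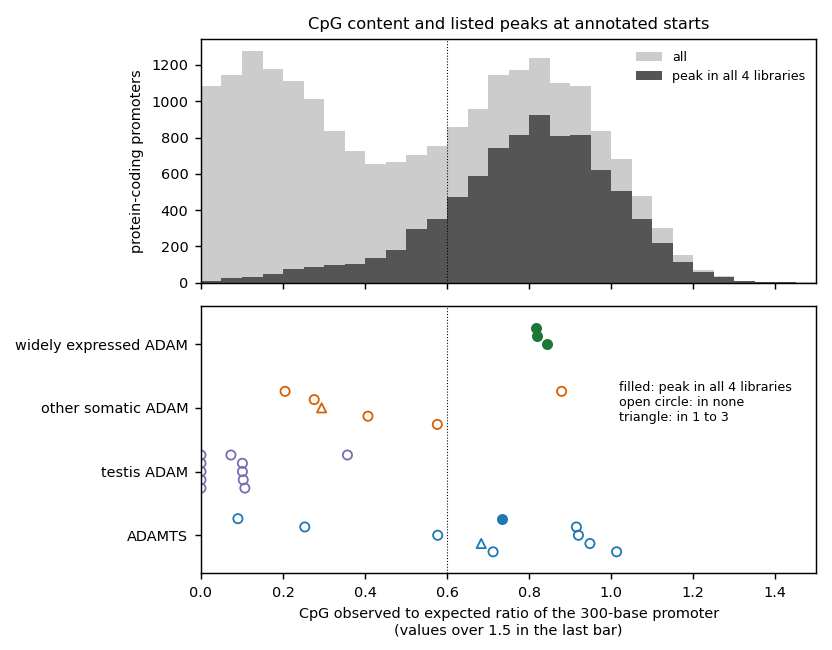
CpG observed to expected ratio over the 300-base promoter (horizontal axis) for all protein-coding promoters (upper panel, number of promoters, dark where a peak overlapped in all 4 libraries) and for the 30 promoters of 28 members (lower panel, by class, spread vertically only for space). The dotted line is at 0.6, right of which lie the 3 widely expressed promoters with peaks and 5 ADAMTS promoters and Adam23 without.

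Short motifs were counted on both strands of the 30 promoters, as letters and not as binding sites. GGGCGG, the core of SP and KLF sites, was present in 3 of 3 widely expressed, 8 of 10 ADAMTS and 0 of 11 testis promoters, against 46.2% of all promoters. CCGGAA, an ETS core, was present in the promoters of Adam15, Adam17 and Adamts14, against 18.7% of all. TATAAA was found in 4 of 11 testis promoters (Adam29, Adam34l, Adam6a and Adam6b), in Adamts1 and in no widely expressed one, against 12.6%. TGANTCA, the AP-1 motif, was found in the testis promoters of Adam1b, Adam20, Adam25 and Adam29 and in a promoter of Adam19, against 7.0%. CCAAT was present in 14 of 30, against 38.2%. By class this was 2 of 3 widely expressed, 2 of 6 other somatic, 7 of 11 testis and 3 of 10 ADAMTS promoters. TGACGTCA (CRE) and the NRF1 motif were present in none, against 2.2% and 1.3%. GGGCGG and CCGGAA contain a CpG, so that their counts share information with the ratio above.

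Genes that work with these proteases were taken from lists of partners and substrates. Of 18 partners and inhibitors, 10 (55.6%, against 43.9% of all protein-coding genes) had one at a gene end in all 4 libraries. Tspan15 and Tspan33, tetraspanin genes whose products bind ADAM10, scored 46, 43, 37 and 51 and 39, 41, 51 and 47, and Tspan14, of the same group, scored 32, 53, 29 and 42. Frmd8, which encodes a partner of the iRhom proteins that escort ADAM17, scored 31, 49, 49 and 54, with the highest peak at different ends of the gene in different libraries. Timp3, Timp4, Tspan10 and Pcsk5 had no gene-end peak in any library. Timp3, the gene of a matrix-bound inhibitor of ADAM17 and aggrecanases, had 4 or 5 peaks inside the gene with highest scores of 38, 57, 36 and 56.

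Shed substrates had gene-end peaks in 19 of 25 cases in every library (76.0%, against 43.9% of all protein-coding genes). The EGF receptor ligand genes Hbegf and Tgfa scored 63, 59, 68 and 71 and 44, 51, 39 and 66, and the receptor genes Il6ra and Axl 33, 36, 38 and 38 and 20, 60, 51 and 48. The highest Axl peak at 25000 cells lay at the other end of the gene from those at the other cell numbers, which lay nearer to an end of Hnrnpul1. Egf, Epgn, Erbb4 and Tnf had no gene-end peak in any library, though Egf had 1 inside it in each, of 25, 53, 29 and 37. The 21 ADAMTS substrates and cofactors had 6 with a gene-end peak in all 4 libraries (28.6%, against the same 43.9%). They included Pofut2, whose product adds fucose to thrombospondin repeats, with 53, 58, 70 and 77, and Bcan, a brain proteoglycan gene, with 64, 69, 56 and 67. Col1a1 scored 33, 30, 29 and 34 and Adamtsl4 23, 41, 45 and 35. Vcan, Acan, Ncan and Col1a2 had no gene-end peak, and Vcan, which encodes versican, had 3 to 5 peaks inside the gene with highest scores of 31, 34, 25 and 36.

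Across cell numbers, the 53 members carried 48, 62, 49 and 65 peaks in or beside the gene from 25000 to 100000 cells, an order that follows the lengths of the lists (38878, 43832, 41509 and 45530). The numbers of members with a gene-end peak, 13, 12, 8 and 11, did not follow that order. The members with a gene-end peak in some libraries but not all were Adam8, Adamts5, Adamts7, Adamts9, Adamts14 and Adamts15, and their peaks there scored up to 20. Adam15 and Adamts17, listed in all 4, each had a further gene-end peak at 50000 cells only, of 12 and 8. The lowest best score at a gene end of a member listed in all 4 was 13, at Adamts6. Adam8, Adamts7 and Adamts9 lacked theirs at 75000 cells alone. Without that library 11 members in place of 8 had a gene-end peak in all the others.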

How the data were processed

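ATAC-seq peak lists of 4 NMuMG libraries, 1 per cell number in the titles, were used. Per the submitters' processing notes, the tools included Picard 1.107, bedtools 2.17.0, Bowtie 0.12.8, cutadapt and SAMtools. The builds named there are mm10 and hg19, of which mm10 is mouse. Peak calling, Tn5 shifting and the placing of repeated reads remain not given in the sources used here. Each list holds a whole-number score per peak, as the authors deposited it, and its formula is unknown. Scores rank peaks within a list. No counts come with the lists, so depth and the precision it gives are unknown.

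Gene ends came from a RefSeq table of GRCm38.p6 without strand (all members matched by symbol), and starts from RefSeq promoters of that build. Overlap of 1 bp counted; lists were merged where peaks overlapped. Promoters were aligned with Biopython 1.88; other steps used Python 3.11.15, pandas 2.3.3 and numpy 2.4.6. Overlap functions were tested on simulated peaks.

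The members, classes and lists were chosen with earlier results of these data known. Named were all members with a listed peak, those without one by class, and of each related list up to 4 genes with gene-end peaks in all 4 libraries (highest mean score percentile) and up to 4 with none. Alternatives were windows of 500 bp and 2 kb, peaks at or above the median score, equal numbers of peaks, nearest ends only, annotated starts only, genes without flanks and leaving out each library. A planned comparison of zinc-binding motifs in the proteins was not made.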

Additional observations from a re-analysis of the deposited data

How the results depend on the processing

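Of 45 class counts under other settings, 40 stayed within 1.5 times the count reported. A count of 0 that stayed 0 is among these 40, also where a stricter setting could not have raised it. With annotated starts only, which 28 of 53 members have, the members with a gene-end peak in all 4 libraries numbered 4 in place of 8. Under that setting the ADAMTS genes numbered 1 in place of 4. The widely expressed genes numbered 3 in place of 4, without Adam9, which has no start in the promoter table. With peaks at or above the median score of each list, the members with a peak in or beside the gene in all 4 libraries numbered 13 in place of 20, the other somatic ADAM genes 1 in place of 4 (Adam23) and the testis genes 0 in place of 1. A window of 2 kb added Adamts1 and Adamts15 to the gene-end count, giving 10, and keeping only peaks nearest to the member's own end took away Adamts13. The 4 widely expressed genes kept their gene-end peak under the other windows, score limits and the nearest-end rule, and the testis count was 0 with the window of 2 kb. Stricter settings can only lower a count, so those say nothing on a count of 0.

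Leaving out each library in turn gave 8 to 11 members with a gene-end peak in all the others, 4 to 6 ADAMTS genes, 4 widely expressed genes, 0 testis genes and 0 to 1 other somatic genes (Adam8, without the library from 75000 cells). For peaks in or beside the gene the ranges were 20 to 21 members, 11 to 12 ADAMTS genes, 4 to 5 other somatic genes, 4 widely expressed and 1 testis gene. Leaving out a library can only keep or raise such counts, so the lower ends of these ranges were fixed in advance. The 4 widely expressed genes are the whole class, and no testis gene had a gene-end peak in any library. Those counts of 4 and 0 could therefore not change. No paired analysis was possible because each cell number has 1 library. Scores start at 8 and no read depth is given, so that weaker open regions could not be told from closed ones.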
